A study of Homo sapiens with 8 samples.

Results

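Rab proteins form the largest branch of the Ras superfamily of small GTPases and were followed here, at the level of their mRNAs, through the retinoid-driven differentiation of an acute promyelocytic leukaemia line. The family was taken as all RefSeq genes named RAB plus a number and optional letters. Of 64 such symbols, 62 had a transcript model in the deposited tables, and 46 reached a mean of 1 FPKM over the 4 groups, out of 11052 genes of any kind that did so. FPKM is the number of fragments per kilobase of transcript, scaled to the mapped fragments of the library. RAB1C and RAB7B had no model. Of the 16 symbols under that mean, RAB9B, RAB19 and RAB43 were listed at 0 in all groups, and the others had means of up to 0.638 FPKM (RAB36). The 46 genes were chosen on their level, so the levels near 1 FPKM are a description of the choice.

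All groups were NB4 cells, a human line established from acute promyelocytic leukaemia, grown with lentiviral hairpins. In the shTFEB ATRA group the cells carried a hairpin against TFEB, a transcription factor of lysosomal and autophagy genes, and received 1 µM all-trans retinoic acid (ATRA) for 72 h. The shScr ATRA group carried a scrambled hairpin and received the same ATRA. The shTFEB vehicle and shScr vehicle groups carried these hairpins and received ethanol for 72 h. Each group had 2 samples in the labels, and the deposited tables give 1 value per group, so the groups have no replicate spread, no difference below was tested, and each compares single values. The titles of the shScr ATRA samples also name the vehicle, and the treatment label, which gives ATRA, was followed. The hairpin sequence and whether the lines were clones are not stated, and wild-type NB4 cells were not analysed here.

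A Rab protein switches between a GDP-bound form, kept soluble by a GDP dissociation inhibitor, and a GTP-bound form that sits in a membrane through its prenyl tails and recruits effectors such as tethers, motors and sorting proteins. Exchange factors load GTP and GTPase-activating proteins end the signal, so that each membrane of the cell carries its own set of active Rabs. In granulocytes these proteins steer granule exocytosis, the uptake and maturation of phagosomes and the recycling of receptors, functions that promyelocytes acquire as they mature.

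Against this background, 8 of the 46 genes were at least 2-fold apart in 1 or more of 5 comparisons, against 31.6% of all genes compared, and 38 were not. Under ATRA the endosomal RAB31, the phagosomal RAB20, the granule gene RAB37 and the post-Golgi genes RAB13 and RAB8B were higher than under vehicle, and RAB15, RAB6B and RAB27B were lower. With the TFEB hairpin RAB13 was lower under ATRA, RAB27B was higher under both treatments, and RAB15 was higher under vehicle.

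The sequences below are the promoter windows of the 4 genes past the 2-fold mark whose RefSeq window (250 bases before to 50 after the annotated start, assembly GRCh38.p14) held the start of their expressed model. They are shown because 3 of these genes were higher and 1 was lower under ATRA. The windows lie at chr1:153986290-153986589 on the minus strand for RAB13, at chr18:9708051-9708350 on the plus strand for RAB31, at chr15:63189356-63189655 on the plus strand for RAB8B and at chr3:133895798-133896097 on the minus strand for RAB6B. The annotated start lay 13 bases from the start of the expressed model in RAB13 and 31 bases in RAB6B. In RAB31 and RAB8B it lay 136 and 137 bases away. Capitals mark CACGTG, the E-box hexamer that TFEB and other basic helix-loop-helix factors bind.
RAB13: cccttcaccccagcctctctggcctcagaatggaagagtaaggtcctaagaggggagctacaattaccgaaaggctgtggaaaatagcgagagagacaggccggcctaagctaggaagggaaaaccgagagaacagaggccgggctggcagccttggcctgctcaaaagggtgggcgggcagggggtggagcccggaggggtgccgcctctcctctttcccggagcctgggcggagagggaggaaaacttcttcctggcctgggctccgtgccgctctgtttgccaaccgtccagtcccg
RAB31: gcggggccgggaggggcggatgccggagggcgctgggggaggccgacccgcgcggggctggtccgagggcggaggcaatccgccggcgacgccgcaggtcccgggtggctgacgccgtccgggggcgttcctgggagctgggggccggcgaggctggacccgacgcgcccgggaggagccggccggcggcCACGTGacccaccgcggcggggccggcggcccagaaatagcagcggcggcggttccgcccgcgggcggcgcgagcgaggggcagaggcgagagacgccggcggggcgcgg
RAB8B: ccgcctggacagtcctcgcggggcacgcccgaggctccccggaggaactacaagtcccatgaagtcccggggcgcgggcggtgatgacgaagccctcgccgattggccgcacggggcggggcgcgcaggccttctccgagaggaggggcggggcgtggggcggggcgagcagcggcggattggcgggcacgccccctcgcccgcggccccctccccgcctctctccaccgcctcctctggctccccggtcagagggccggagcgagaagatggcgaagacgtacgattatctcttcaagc
RAB6B: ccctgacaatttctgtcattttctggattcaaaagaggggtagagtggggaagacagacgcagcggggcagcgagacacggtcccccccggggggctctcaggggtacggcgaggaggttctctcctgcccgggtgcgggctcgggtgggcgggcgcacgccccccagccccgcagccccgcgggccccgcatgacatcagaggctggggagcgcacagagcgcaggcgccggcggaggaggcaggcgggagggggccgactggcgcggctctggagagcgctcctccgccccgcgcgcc

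RAB31 alone of the 4 held CACGTG, 1 time. The windows were rich in G and C, with 82.7% in RAB31, 73.3% in RAB8B, 73.0% in RAB6B and 62.3% in RAB13. They held 52 CG pairs in RAB31, 38 in RAB8B, 31 in RAB6B and 14 in RAB13.

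Of the 46 genes, 37 had a window in the RefSeq promoter table, and 6 of these (16.2%) held CACGTG on either strand, against 8.77% of all genes in the table. The shares of all genes given for motifs cover genes of any level, while the 37 were chosen at a mean of at least 1 FPKM. No share was taken over genes that passed the same mean. Apart from RAB31 the genes with CACGTG were RAB5A and RAB21 of early endosomes, RAB24, RAB29 and the recycling gene RAB4A. The sites are shown with the bases on either side, in GRCh38.p14, since CACGTG is the hexamer known to be bound by the factor the hairpin targets. They lie at chr3:19946966-19946991 for RAB5A, chr12:71754833-71754858 for RAB21, chr5:177303734-177303759 on the minus strand for RAB24, chr1:205775448-205775473 on the minus strand for RAB29 and chr1:229270999-229271024 for RAB4A, with CACGTG in capitals.
RAB5A: ctcgcagggtCACGTGacatcctgcc
RAB21: caccggcgctCACGTGacccgaggtg
RAB24: gcgcccgcgcCACGTGaccttgcggc
RAB29: ggcaaccctgCACGTGacgcttgcgg
RAB4A: ccagcccgcgCACGTGcttccggcgc

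The longer TCACGTGA, which contains the hexamer, was in RAB5A and RAB21 (5.41% of the 37 against 1.18% of all genes). The CLEAR element of lysosomal genes, which contains both shorter motifs, was in RAB5A, against 0.421% of all genes. A retinoic acid receptor half-site pair spaced by 5 bases was also searched for. It was in 0 of the 37, against 0.0256% of all genes, a share at which 0 of 37 says little. Among the 6 genes with CACGTG, RAB31 was past the 2-fold mark and RAB5A, RAB21, RAB24, RAB29 and RAB4A were not, with log2 ratios of ATRA over vehicle in shScr cells between -0.56 (RAB4A) and 0.46 (RAB29). A match describes the letters of a window and says nothing of binding. RAB1A, RAB2A, RAB12, RAB15, RAB20, RAB33B, RAB37, RAB38 and RAB44 were not in the table.

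TFEB itself, the check of the hairpin label, was at 8.44 FPKM in shTFEB ATRA cells and 19.4 FPKM in shScr ATRA cells, and at 1.35 FPKM in shTFEB vehicle cells and 1.20 FPKM in shScr vehicle cells. The level with the TFEB hairpin was thus 43.6% of that with the scrambled hairpin under ATRA and 113% under vehicle. The vehicle group labelled shTFEB was not lower in TFEB than its control, which bears on every hairpin comparison under vehicle below. The deposited bounds of TFEB did not overlap under ATRA (7.41 to 9.51 against 17.9 to 20.9 FPKM) and overlapped under vehicle (1.11 to 1.63 against 0.928 to 1.52 FPKM). Bounds are the lower and upper values in the authors' tables, whose headers name them as confidence bounds (conf) of the FPKM. How they were derived is not stated. They enclosed the FPKM they belong to in 77.5% to 80.4% of models of at least 1 FPKM. The myeloid marker CD33 was at 23.4 to 29.3 FPKM in all groups, and MPO, the peroxidase of promyelocyte granules, was at 594 and 662 FPKM in the shTFEB and shScr ATRA groups and 2462 and 3871 FPKM in the shTFEB and shScr vehicle groups. ELANE, another promyelocyte granule gene, was at or near 0.

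The mean level over the 4 groups spanned 68.0-fold, from 1.82 FPKM for RAB40B to 124 FPKM for RAB7A, with a median of 14.98 FPKM. RAB7A was followed by RAB5C at 83.3, RAB1B at 79.4, RAB11B at 74.0 and RAB1A at 63.1 FPKM, genes of the early endosome, recycling and early secretory routes that most cells use. At the low end RAB40B, RAB6D (1.84 FPKM) and RAB27B (2.07 FPKM) lay just inside the mean of 1 FPKM, and RAB36 (0.638), RAB3B (0.452) and RAB3A (0.283) just outside it. RAB6D was at 2.14 and 2.06 FPKM in the shTFEB and shScr ATRA groups and 1.64 and 1.54 FPKM in the shTFEB and shScr vehicle groups. Outside the limit, RAB36 and RAB3B ran from 0.410 to 0.771 FPKM over the groups and RAB3A from 0.151 to 0.464 FPKM, with its higher values in the shTFEB groups. The values of the 46 genes summed to 1129 FPKM in shTFEB ATRA and 1162 FPKM in shScr ATRA cells, against 1001 FPKM in shTFEB vehicle and 977 FPKM in shScr vehicle cells, which is 1.13 times the vehicle sum in shTFEB cells and 1.19 times in shScr cells.

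**Figure D1:**
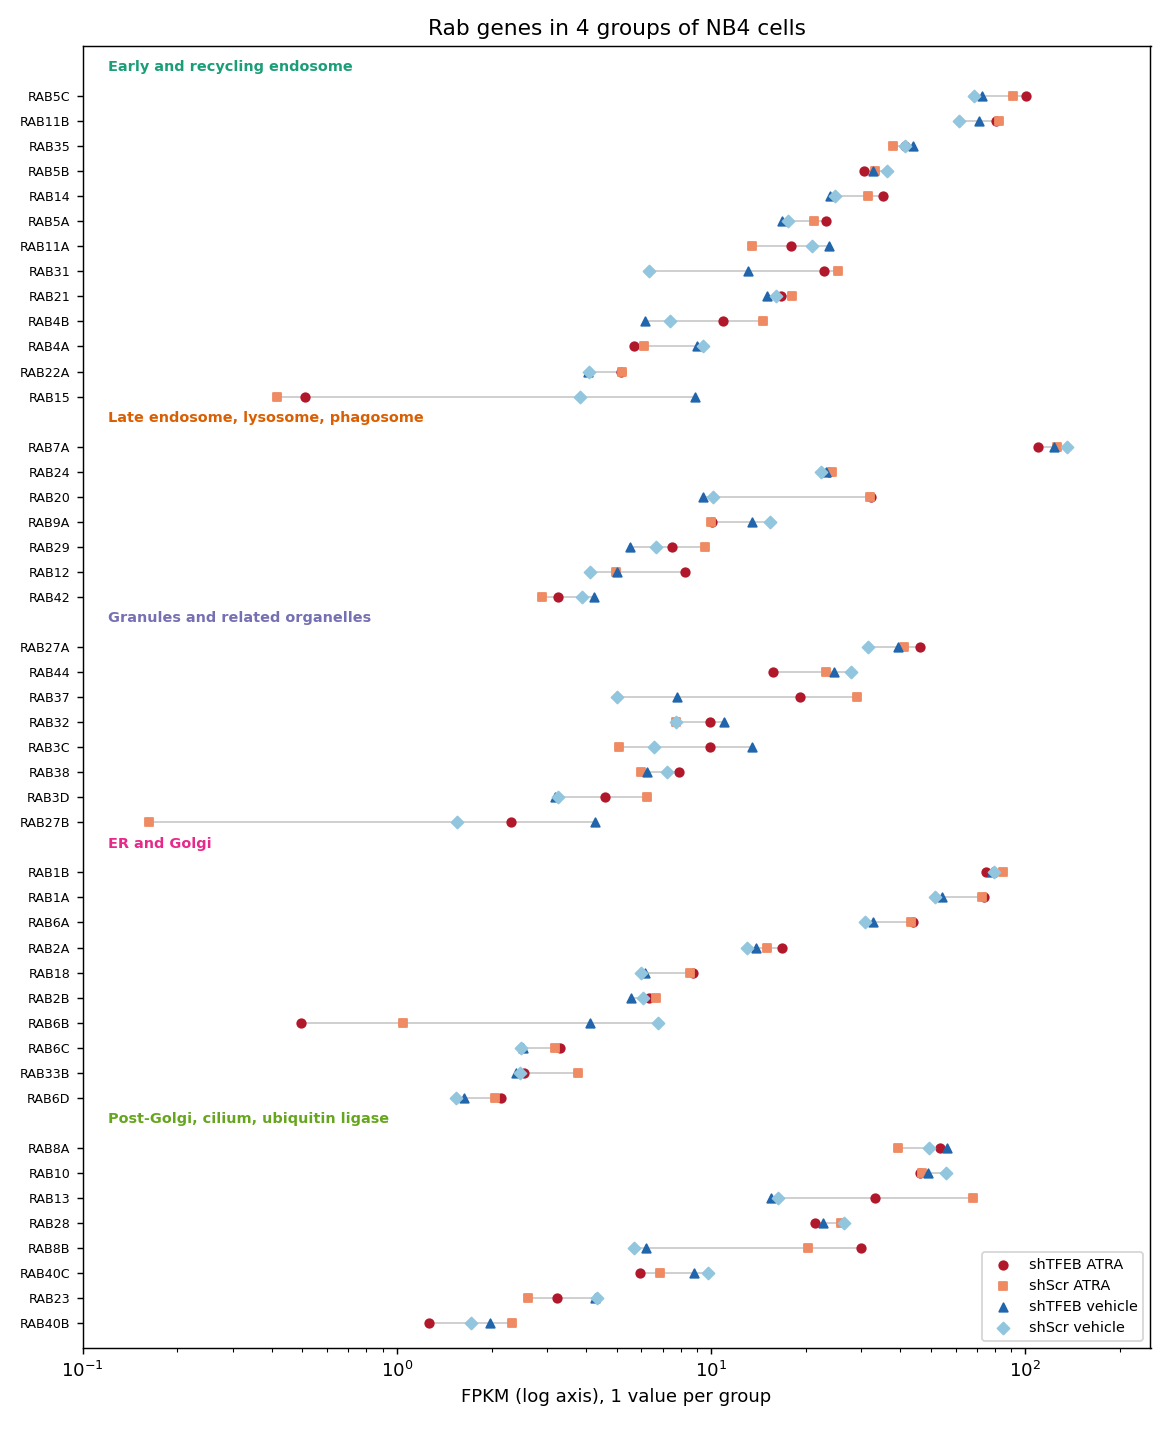
FPKM on a log axis of the 46 Rab genes in the shTFEB ATRA, shScr ATRA, shTFEB vehicle and shScr vehicle groups, 1 point per group, ordered by mean level within each role class, with a grey line from the lowest to the highest group. The points of most genes lie close together, and the lines are long for RAB15 and RAB6B, whose ATRA levels lie to the left, for RAB27B, whose shScr ATRA level of 0.162 FPKM is the lowest of all, and for RAB31, RAB20, RAB37, RAB13 and RAB8B, whose ATRA levels lie to the right.

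The first comparison was ATRA with vehicle, within each hairpin line. Ratios are log2((FPKM + 1)/(FPKM + 1)), on which low genes look closer than their FPKM, and a gene is called 2-fold apart at 1 or more in size. In shTFEB cells 4 of the 46 genes were at least 2-fold higher under ATRA, against 11.5% of all genes compared, and 2 were at least 2-fold lower, against 10.5%. In shScr cells 5 were higher (12.5% of all genes) and 3 lower (15.2%). The median Rab ratio was 0.15 in shTFEB and 0.18 in shScr cells, against -0.13 and -0.15 for all genes. Many Rab genes lay close to their vehicle level: 33 of 46 were within 0.5 of a log2 ratio of 0 in shTFEB cells, against 51.4% of all genes, and 32 of 46 in shScr cells, against 45.3%. Bulk RNA cannot tell a change in the share of cells from a change in RNA per cell.

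Among 13 genes of the early endosome and recycling route, 1 was higher, 1 was lower and 11 were not past the mark in shScr cells. Of all genes compared, 12.5% were higher and 15.2% lower in these cells. In shTFEB cells 0 of the 13 were higher (11.5% of all genes) and 1 was lower (10.5%). RAB5C, which with its paralogues drives the fusion of early endosomes, was at 101 FPKM in shTFEB ATRA and 91.2 in shScr ATRA cells, and at 72.7 in shTFEB vehicle and 68.7 in shScr vehicle cells. RAB11B of the recycling endosome was at 80.7 and 82.3 FPKM in the shTFEB and shScr ATRA groups and 71.4 and 61.6 FPKM in the shTFEB and shScr vehicle groups. These genes, the most abundant of the class, were higher under ATRA, by 1.13-fold to 1.38-fold in FPKM summed over models. Part of the RAB5C sum, 9.73 and 9.05 FPKM in the shTFEB and shScr ATRA groups, came from a model listed at 0 in both vehicle groups. The main RAB5C model was at 90.9 and 82.2 FPKM in the shTFEB and shScr ATRA groups and 72.7 and 68.7 FPKM in the shTFEB and shScr vehicle groups. The log2 ratios of the 11 genes under the mark in shScr cells ran from -0.60 in RAB11A to 0.90 in RAB4B.

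RAB31 (chr18:9708228-9862553, hg19), which directs traffic between the Golgi and endosomes and is found on early phagosomes, was at 22.8 FPKM in shTFEB ATRA and 25.3 in shScr ATRA cells, and at 13.1 in shTFEB vehicle and 6.32 in shScr vehicle cells. Its shScr vehicle level stood below the other 3 groups. The log2 ratio of ATRA over vehicle was 0.76 in shTFEB cells and 1.84 in shScr cells. The labelled shTFEB vehicle cells held 2.07 times the FPKM of shScr vehicle cells.

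RAB15 (chr14:65412532-65438875, hg19), a regulator of receptor recycling described mainly in neurons, ran the other way. It was at 0.509 FPKM in shTFEB ATRA and 0.416 in shScr ATRA cells, against 8.90 in shTFEB vehicle and 3.81 in shScr vehicle cells. Each ATRA value was far below each vehicle value. The log2 ratio was -2.71 in shTFEB and -1.77 in shScr cells, and its ATRA level was 17.5-fold lower in FPKM in shTFEB and 9.18-fold lower in shScr cells. The RAB15 model lies inside that of the read-through gene CHURC1-FNTB, which was at 7.33 and 5.05 FPKM in the shTFEB and shScr ATRA groups and 10.7 and 11.7 FPKM in the shTFEB and shScr vehicle groups, so some reads could be shared.

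Of the 7 genes of late endosomes, lysosomes and phagosomes, RAB20 was past the mark in each line and the other 6 in neither. Past the mark upward were 11.5% of all genes in shTFEB and 12.5% in shScr cells, and downward 10.5% and 15.2%. RAB20 (chr13:111175413-111214071, hg19), which acts in phagosome maturation, was at 32.2 FPKM in shTFEB ATRA and 32.0 in shScr ATRA cells, against 9.43 in shTFEB vehicle and 10.2 in shScr vehicle cells. The ATRA groups matched each other closely, as did the vehicle groups. Its log2 ratio was 1.67 in shTFEB and 1.57 in shScr cells. RAB20's FPKM lay above its own deposited upper bounds in all 4 groups. These bounds were 29.9 and 29.4 FPKM in the shTFEB and shScr ATRA groups and 9.11 and 9.87 FPKM in the shTFEB and shScr vehicle groups. The same held for other members, among them RAB7A and RAB1B.

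RAB7A, the Rab of late endosome and lysosome fusion, moved little: it was at 110 FPKM in shTFEB ATRA and 126 in shScr ATRA cells, and at 123 in shTFEB vehicle and 136 in shScr vehicle cells, with a log2 ratio of -0.17 in shTFEB and -0.11 in shScr cells. RAB24, linked to autophagy, was the flattest of the class, at 22.4 to 24.2 FPKM in all groups. For comparison, 16 of 25 lysosomal hydrolase and membrane genes were at least 2-fold higher under ATRA in shScr cells, against 12.5% of all genes. In these cells 0 were lower, against 15.2% of all genes, and the median log2 ratio was 1.74. In shTFEB cells 14 of the 25 were higher (11.5% of all genes) and 0 lower (10.5%), with a median of 1.26. Beside that list RAB7A, the most abundant Rab of the same organelle, was at 0.890 and 0.925 times its vehicle FPKM in shTFEB and shScr cells. The other genes of the class ran from -0.58 in RAB9A, which returns receptors from late endosomes to the Golgi, to 0.46 in RAB29 in shScr cells.

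Among the 8 genes of granules and lysosome-related organelles, RAB37 was past the mark upward in each line and RAB27B downward in shScr cells. The shares of all genes past it were 11.5% upward and 10.5% downward in shTFEB cells, and 12.5% and 15.2% in shScr cells. RAB37 (chr17:72667256-72743474, hg19), found on secretory granules of mouse mast cells, was at 19.2 FPKM in shTFEB ATRA and 29.1 in shScr ATRA cells, and at 7.79 in shTFEB vehicle and 5.02 in shScr vehicle cells. Its log2 ratio was 1.20 (2.46-fold in FPKM) in shTFEB cells and 2.32 (5.80-fold) in shScr cells, where it was the highest of the 46 genes. Its level came from 2 models above 0: the higher was at 19.2, 24.99, 5.79 and 5.02 FPKM in the shTFEB ATRA, shScr ATRA, shTFEB vehicle and shScr vehicle groups, and the other at 4.12 FPKM in shScr ATRA and 2.00 in shTFEB vehicle cells and listed at 0 in the remaining groups. A further RAB37 model overlaps CD300LF, a gene at 29.4 and 32.9 FPKM in the shTFEB and shScr ATRA groups and 2.999 and 2.75 FPKM in the shTFEB and shScr vehicle groups, but the models with signal start beyond that gene.

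RAB27A, which docks azurophilic granules for release in neutrophils, was the most abundant of the class, at 46.02 FPKM in shTFEB ATRA and 41.2 in shScr ATRA cells, and at 39.4 in shTFEB vehicle and 31.5 in shScr vehicle cells. Its paralogue RAB27B (chr18:52495708-52562747, hg19), used by platelets and mast cells, was at 2.30 FPKM in shTFEB ATRA and 0.162 in shScr ATRA cells, and at 4.27 in shTFEB vehicle and 1.55 in shScr vehicle cells. Each ATRA value was below the vehicle value of its line, with a log2 ratio of -0.67 in shTFEB and -1.13 in shScr cells. RAB44, a large atypical Rab known from granule-bearing marrow cells in mice, was at 15.8 FPKM in shTFEB ATRA and 23.3 in shScr ATRA cells, and at 24.6 in shTFEB vehicle and 27.8 in shScr vehicle cells. Its order ran opposite to that of RAB27A, with the lowest value in shTFEB ATRA cells. The remaining genes of the class ran from -0.31 in RAB3C to 0.77 in RAB3D, a Rab of secretory granules, in shScr cells.

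Of the 10 genes of the endoplasmic reticulum and Golgi, all but RAB6B lay within 0.5 of a log2 ratio of 0 in each line. The share of all genes within 0.5 was 51.4% in shTFEB and 45.3% in shScr cells. RAB1B and RAB1A, which carry vesicles from the endoplasmic reticulum to the Golgi, showed log2 ratios of -0.07 and 0.44 in shTFEB cells and 0.10 and 0.49 in shScr cells. RAB1B was at 74.8 FPKM in shTFEB ATRA and 85.1 in shScr ATRA cells, and at 78.3 in shTFEB vehicle and 79.4 in shScr vehicle cells. RAB1A was at 73.9 and 72.8 FPKM in the shTFEB and shScr ATRA groups and 54.2 and 51.5 FPKM in the shTFEB and shScr vehicle groups. Its model overlaps that of CEP68 by 155 bases. CEP68 was listed at 0 in both ATRA groups and at 7.12 and 8.17 FPKM in the shTFEB and shScr vehicle groups. The part of this overlap in the RAB1A values was not tested.

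RAB6B (chr3:133543080-133614691, hg19), the RAB6 form enriched in brain, was at 0.495 FPKM in shTFEB ATRA and 1.04 in shScr ATRA cells, against 4.12 in shTFEB vehicle and 6.75 in shScr vehicle cells. Each ATRA value lay below each vehicle value. Its log2 ratio was -1.78 in shTFEB and -1.92 in shScr cells, which is 8.32-fold and 6.47-fold lower in FPKM. The ubiquitous RAB6A went the other way, with a log2 ratio of 0.41 in shTFEB and 0.48 in shScr cells. Over the coding bases that align, RAB6A, RAB6C and RAB6D are 96.0% to 99.5% identical, so how reads were split among them is uncertain. For RAB6A against RAB6C or RAB6D, 525 bases aligned, from coding sequences of 525 and 762 bases. RAB6B is 76.8% identical with RAB6A over the aligned bases.

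Among the 8 genes of post-Golgi exocytosis, cilium and ubiquitin ligase function, RAB13 and RAB8B were past the mark upward in each line. So were 11.5% of all genes in shTFEB and 12.5% in shScr cells. In each line 0 of the 8 were past it downward, against 10.5% and 15.2% of all genes. RAB13 (chr1:153954093-153958853, hg19), which delivers membrane proteins to the cell surface and to tight junctions, was at 33.3 FPKM in shTFEB ATRA and 68.0 in shScr ATRA cells, and at 15.5 in shTFEB vehicle and 16.3 in shScr vehicle cells. The vehicle groups lay close together and the shScr ATRA group stood highest. Its log2 ratio was 1.06 in shTFEB and 1.99 in shScr cells. RAB8B (chr15:63481728-63559973, hg19), a regulator of transport from the Golgi to the plasma membrane, was at 30.0 FPKM in shTFEB ATRA and 20.3 in shScr ATRA cells, and at 6.19 in shTFEB vehicle and 5.67 in shScr vehicle cells. Here the shTFEB ATRA group was highest, and the log2 ratio was 2.11 in shTFEB and 1.68 in shScr cells.

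The more abundant genes of that class did not share this. RAB8A, the paralogue of RAB8B that also builds cilia, was at 53.5 FPKM in shTFEB ATRA and 39.2 in shScr ATRA cells, and at 56.2 in shTFEB vehicle and 49.3 in shScr vehicle cells. RAB10, which moves carriers to the plasma membrane, was at 46.3 and 47.0 FPKM in the shTFEB and shScr ATRA groups and 48.9 and 55.7 FPKM in the shTFEB and shScr vehicle groups. At vehicle RAB8A was thus several times as abundant as RAB8B in FPKM, and under ATRA the gap narrowed. RAB40B, an adaptor of a ubiquitin ligase and the lowest of the 46 genes, was at 1.26 FPKM in shTFEB ATRA and 2.32 in shScr ATRA cells, and at 1.98 in shTFEB vehicle and 1.72 in shScr vehicle cells. The genes of the class under the mark ran from -0.56 in RAB23, a negative regulator of Hedgehog signalling, to 0.29 in RAB40B in shScr cells.

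**Figure D2:**
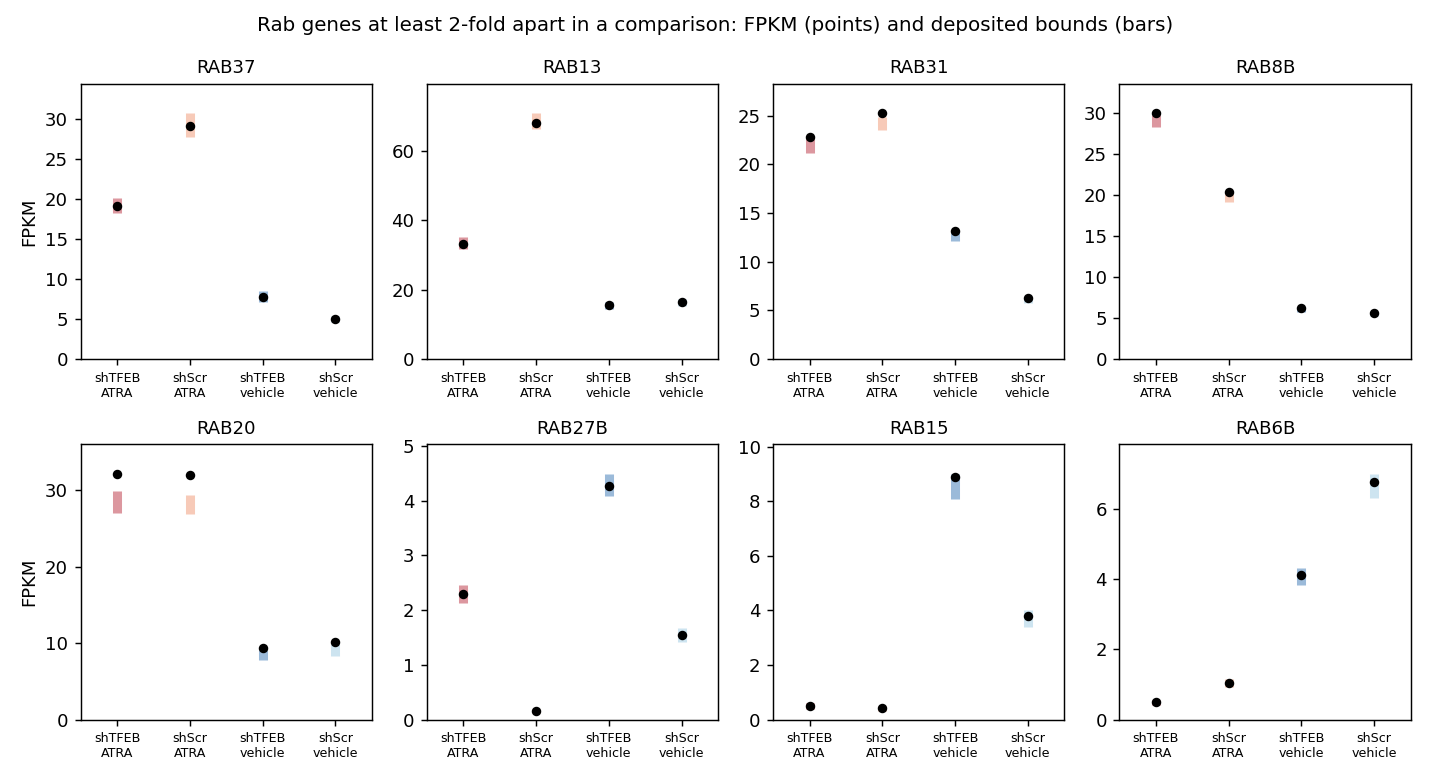
FPKM (points, linear axes from 0) and deposited bounds (bars) of the 8 Rab genes at least 2-fold apart in a comparison, in the shTFEB ATRA, shScr ATRA, shTFEB vehicle and shScr vehicle groups, 1 value per group. RAB37, RAB13, RAB31, RAB8B and RAB20 stand higher in the ATRA groups, RAB6B and RAB15 in the vehicle groups, and RAB27B stands higher in the shTFEB group of each treatment.

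In the shTFEB and shScr responses to ATRA, which rest on separate samples, 43 of 46 genes lay on the same side of 0, against 89.7% of all genes. The members past the mark in each line were RAB37, RAB13, RAB8B and RAB20 upward and RAB6B and RAB15 downward. Among the 38 genes past the mark nowhere, the ATRA ratio reached at most 0.90 in size, in RAB4B of the recycling endosome (log2 ratio 0.74 in shTFEB and 0.90 in shScr cells). With a pseudocount of 5 FPKM, RAB37 (0.92), RAB13 (0.90) and RAB6B (-0.73) fell under the mark in shTFEB cells and RAB6B (-0.96), RAB15 (-0.70) and RAB27B (-0.34) in shScr cells, while RAB15 stayed past it in shTFEB cells at -1.34. Deposited bounds were apart between ATRA and vehicle for 36 of 46 genes in shTFEB cells, against 77.9% of all genes, and for 38 of 46 in shScr cells, against 81.1%.

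**Figure D3:**
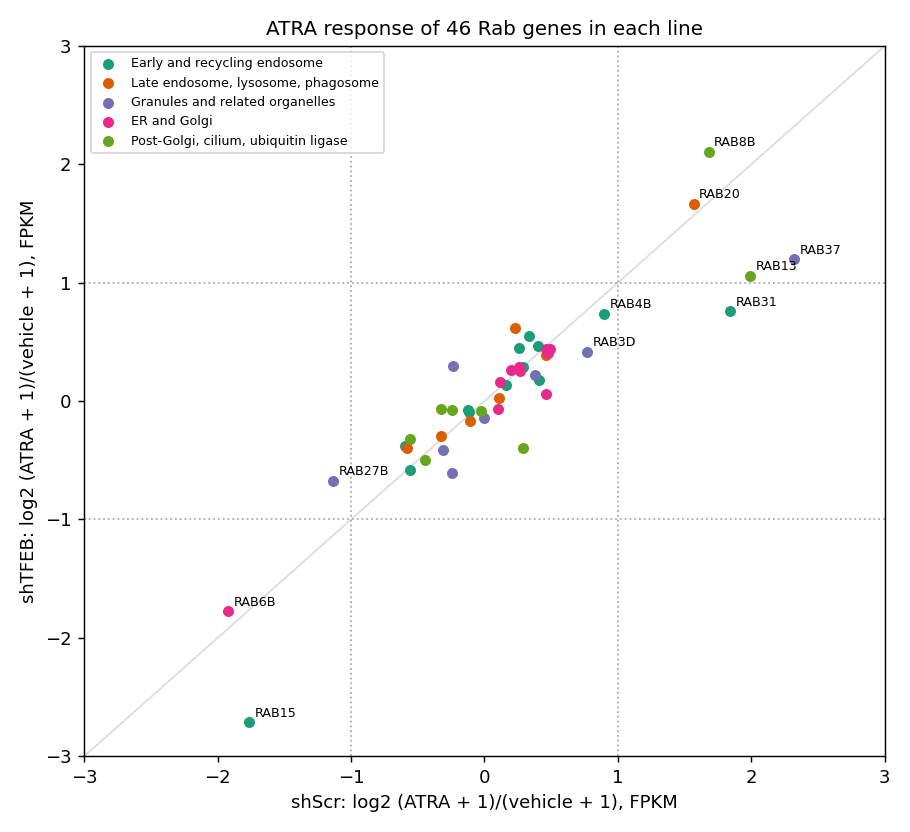
log2 ratio of ATRA over vehicle in shTFEB cells (vertical) against shScr cells (horizontal) for the 46 Rab genes, coloured by role class, with the line of equality in grey and the 2-fold marks dotted. RAB31, RAB37 and RAB13 lie under the line with smaller ratios in shTFEB cells, and RAB8B lies above it.

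Some paralogues parted under ATRA. RAB6C and RAB6D were set aside, since their reads cannot be told safely from those of RAB6A. The other pairs that share a Rab number were 12. Of these, 6 differed by over 1 on the log2 scale in shScr cells and 4 by under 0.5. No share was taken over other pairs of genes, and 27.7% of all genes were past the 2-fold mark in shScr cells. RAB5A, RAB5B and RAB5C each stand in more than 1 pair, so the pairs are not independent. Pairs were compared in shScr cells alone. Among these 12 the widest gaps were between RAB6A and RAB6B (0.48 against -1.92), RAB8A and RAB8B (-0.32 against 1.68), and RAB27A and RAB27B (0.38 against -1.13). The coding sequences of these pairs are 76.8%, 77.1% and 67.1% identical over their aligned bases. RAB4A and RAB4B, both of fast recycling, also parted, with ratios of -0.56 and 0.90. In the first 3 of these pairs the member past the mark, RAB6B, RAB8B or RAB27B, had the lower mean level. The RAB1 and RAB2 pairs differed by under 0.5.

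The second comparison was the TFEB hairpin with the scrambled one, at each treatment. Under ATRA 1 of 46 genes was past the mark upward in shTFEB cells (2.67% of all genes) and 1 downward (1.58%). Under vehicle 2 were past it upward (1.06%) and 0 downward (0.787%). The median Rab ratio was 0.01 under ATRA and 0.00 under vehicle, and 38 and 40 of 46 genes lay within 0.5 of 0, against 85.1% and 94.5% of all genes. Deposited bounds were apart for 28 of 46 genes under ATRA, against 54.8% of all genes, and for 19 of 46 under vehicle, against 36.8%. These comparisons share their samples with those of ATRA and vehicle, so the values of a gene in them are linked.

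RAB13 was the gene past the mark downward: its 33.3 FPKM in shTFEB ATRA cells was 49.0% of the 68.0 FPKM in shScr ATRA cells, a log2 ratio of -1.01, just past the mark and -0.93 with a pseudocount of 5 FPKM. Under vehicle, where TFEB was not lower in the cells labelled shTFEB, RAB13 was at 15.5 FPKM against 16.3 FPKM in shScr cells. RAB37 pointed down under ATRA (19.2 FPKM in shTFEB against 29.1 FPKM in shScr cells, log2 ratio -0.58) and up under vehicle (0.55). Neither RAB37 ratio reached the mark. RAB6B, a low gene, was also lower in shTFEB cells. It was at 0.495 FPKM against 1.04 FPKM under ATRA (47.4% in FPKM) and 4.12 FPKM against 6.75 FPKM under vehicle (61.1%). With the pseudocount its log2 ratios were -0.45 and -0.60, under the mark, and its deposited bounds were apart at each treatment.

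RAB27B was higher with the TFEB hairpin at each treatment, at 2.30 FPKM against 0.162 FPKM under ATRA (14.2-fold in FPKM, log2 ratio 1.51) and 4.27 FPKM against 1.55 FPKM under vehicle (2.76-fold, log2 ratio 1.05). Its deposited bounds were apart in each pair (2.14 to 2.47 against 0.130 to 0.197 FPKM, and 4.08 to 4.49 against 1.42 to 1.67 FPKM). With a pseudocount of 5 FPKM the RAB27B ratio was 0.50 at each treatment, under the mark. RAB15 was at 8.90 FPKM in shTFEB vehicle and 3.81 FPKM in shScr vehicle cells, a log2 ratio of 1.04 (0.66 with a pseudocount of 5 FPKM, under the mark), and at 0.509 and 0.416 FPKM in the shTFEB and shScr ATRA groups. RAB3C, a Rab of synaptic vesicles in neurons, was at 9.92 FPKM in shTFEB ATRA and 5.10 in shScr ATRA cells and at 13.5 FPKM in shTFEB vehicle and 6.58 in shScr vehicle cells. Its log2 ratios of 0.84 under ATRA and 0.94 under vehicle lay under the mark.

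Some markers of cell types and maturation also differed between the hairpin lines. Of 18 eosinophil, basophil and mast cell markers 10 were compared. Of these, 7 passed the mark upward in shTFEB cells under ATRA (2.67% of all genes) and 4 under vehicle (1.06%). In each treatment 0 passed it downward (1.58% and 0.787% of all genes). The 18 markers summed to 1292 FPKM in shTFEB ATRA and 183 FPKM in shScr ATRA cells, and to 1871 FPKM in shTFEB vehicle and 1292 FPKM in shScr vehicle cells. The histamine-making enzyme HDC was at 17.0 and 1.29 FPKM in the shTFEB and shScr ATRA groups and 96.1 and 10.4 FPKM in the shTFEB and shScr vehicle groups, while the mast cell and basophil receptor gene FCER1A was at 0 in all groups and KIT and CPA3 reached at most 0.0114 and 0.0222 FPKM. The part of these marker differences in the values of RAB27B, RAB15, RAB3C and RAB31 was not tested. Of 12 promyelocyte and neutrophil markers 11 were compared, and 10 of them lay below 0 in shTFEB against shScr cells under ATRA and 7 under vehicle. Of the 11052 genes compared, 4468 lay below 0 under ATRA and 4809 under vehicle. Past the mark were S100A8 downward under ATRA (219.9 FPKM in shTFEB and 685 FPKM in shScr cells, log2 ratio -1.63) and ITGAM upward under vehicle (5.63 and 2.18 FPKM in shTFEB and shScr cells). The ATRA response of ITGAM, an integrin of mature myeloid cells, differed by -1.66 between shTFEB and shScr cells. The 12 markers summed to 1816 and 2840 FPKM in the shTFEB and shScr ATRA groups and 2898 and 4413 FPKM in the shTFEB and shScr vehicle groups. MPO alone made up most of the sums under vehicle. The part of these markers in the lower RAB13 value under ATRA and in the smaller responses of RAB37 and RAB31 was not tested. Of 11 lymphoid, erythroid and megakaryocyte markers 3 were compared, with sums of 23.5 and 20.0 FPKM in the shTFEB and shScr ATRA groups and 5.88 and 6.50 FPKM in the shTFEB and shScr vehicle groups.

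**Figure D4:**
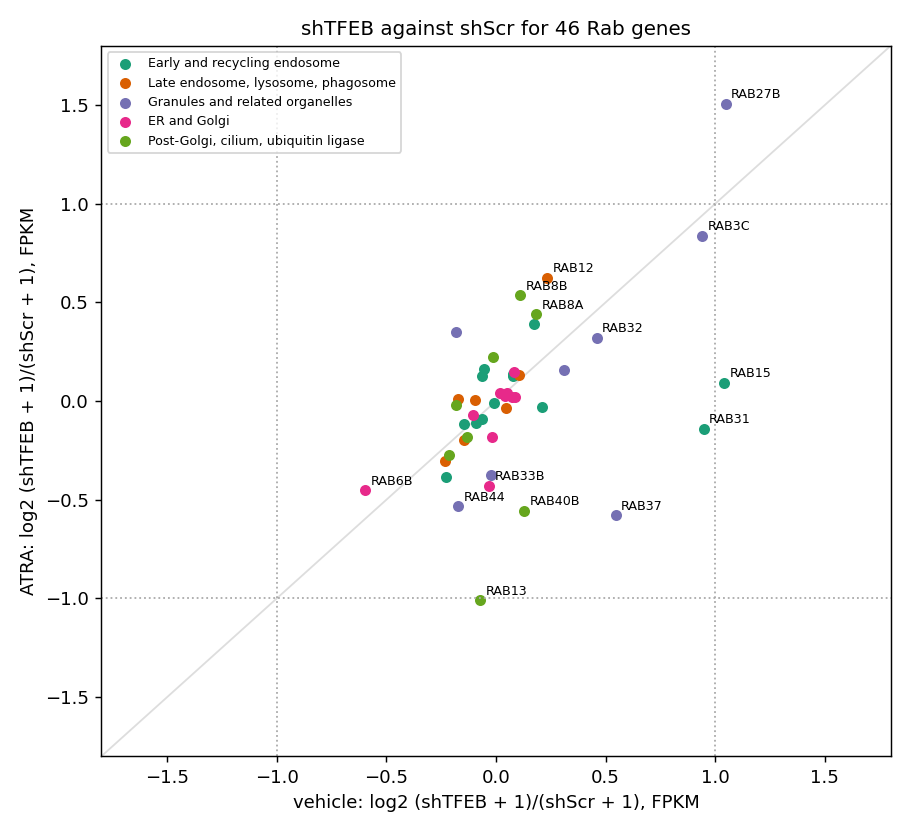
log2 ratio of shTFEB over shScr under ATRA (vertical) against vehicle (horizontal) for the 46 Rab genes, coloured by role class, with the line of equality in grey and the 2-fold marks dotted. Most genes cluster near 0, RAB27B lies past both marks at the upper right, RAB13 lies at -1.01 under ATRA, and RAB15 and RAB31 lie to the right.

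The third comparison set the ATRA response of shTFEB cells against that of shScr cells. A response at least 2-fold higher in shTFEB cells was seen in 0 of 46 genes (2.42% of all genes), and one at least 2-fold lower in 2 (1.86%), RAB37 (-1.12) and RAB31 (-1.09), as differences of log2 ratios. With a pseudocount of 5 FPKM these were -0.85 and -0.80, under the mark. RAB15 (-0.95) and RAB13 (-0.94) came next in that direction and did not reach the mark. For RAB31 the ATRA levels of the lines were close, at 22.8 FPKM in shTFEB and 25.3 FPKM in shScr cells, and the gap lay between the vehicle levels. For RAB37 the lines differed in opposite directions under ATRA and under vehicle, and with its higher model alone the difference was -0.54. For RAB13 the vehicle levels were close and the gap lay under ATRA. Differences of responses lay within 0.5 of 0 for 40 of 46 genes, against 85.9% of all genes.

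The proteins that load, switch and read Rabs were taken from 4 lists of 15 prenylation, dissociation inhibitor and chaperone genes, 50 exchange factors, 40 GTPase-activating proteins and 71 effectors, some of which act on several Rabs. In shTFEB cells 0 of the 15 compared genes of the first list were at least 2-fold higher under ATRA and 1 was lower, with 0 and 2 of 42 exchange factors, 3 and 1 of 32 GTPase-activating proteins, and 5 and 4 of 56 effectors. The shares of all genes were 11.5% higher and 10.5% lower. In shScr cells these counts were 2 and 1, 4 and 4, 4 and 1, and 4 and 5, against 12.5% and 15.2% of all genes. The median log2 ratios in shScr cells were 0.24, 0.13, 0.20 and 0.10, against -0.15 for all genes. With the TFEB hairpin 1 gene of these lists passed the mark under ATRA, where 2.67% of all genes were higher and 1.58% lower, and 0 passed it under vehicle (1.06% and 0.787%). The gene was the effector MICAL1, which oxidises actin and was at 5.45 FPKM in shTFEB and 14.2 FPKM in shScr cells (log2 ratio -1.24).

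CHML, an escort protein that presents Rabs for prenylation, was at 2.58 FPKM in shTFEB ATRA and 2.53 in shScr ATRA cells, and at 9.54 in shTFEB vehicle and 10.96 in shScr vehicle cells. ARL6IP5 was higher under ATRA in shScr cells, with a log2 ratio of 1.36. Among exchange factors ANKRD27, which activates RAB21 and binds RAB32 and RAB38, was at 6.96 FPKM in shTFEB ATRA and 4.83 in shScr ATRA cells, and at 26.03 in shTFEB vehicle and 23.0 in shScr vehicle cells. These 3 partners differed less: in shScr cells the log2 ratio of ATRA over vehicle was 0.16 for RAB21 and -0.24 for RAB38, and RAB32 was at 7.71 FPKM under ATRA and 7.73 FPKM under vehicle. RIN3, an exchange factor of the RAB5 group that also acts on RAB31, was at 14.4 FPKM in shTFEB ATRA and 18.4 in shScr ATRA cells, and at 6.81 in shTFEB vehicle and 6.404 in shScr vehicle cells, and so was higher under ATRA along with RAB31.

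DENND4B (1.27) and DENND1C (1.20), exchange factors of RAB10 and RAB35, were higher under ATRA in shScr cells on the log2 scale, and the TRAPP subunit TRAPPC2L (-1.36) was lower. Among GTPase-activating proteins RABGAP1L was at 21.5 FPKM in shTFEB ATRA and 19.2 in shScr ATRA cells, and at 5.66 in shTFEB vehicle and 6.34 in shScr vehicle cells. TBC1D8, TBC1D10C and TBC1D17 were also higher in shScr cells, with log2 ratios of 1.41, 1.32 and 1.22, and TBC1D24 was lower at -1.30.

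Among effectors RAB11FIP4 was at 5.00 FPKM in shTFEB ATRA and 5.15 in shScr ATRA cells, and at 0.256 in shTFEB vehicle and 0.173 in shScr vehicle cells, a log2 ratio of 2.26 in shTFEB and 2.39 in shScr cells. Its close relative RAB11FIP3 ran the other way, with ratios of -1.35 and -1.48 in shTFEB and shScr cells. Both bind RAB11, whose RAB11A and RAB11B genes had ratios of -0.60 and 0.41 in shScr cells. The RAB9 effector RABEPK (-1.49) and the RAB6 effector BICD1 (-1.47) were lower under ATRA in shScr cells. MICALL2, an effector of RAB13, was lower, with ratios of -1.40 and -1.17 in shTFEB and shScr cells, while RAB13 was higher.

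**Figure D5:**
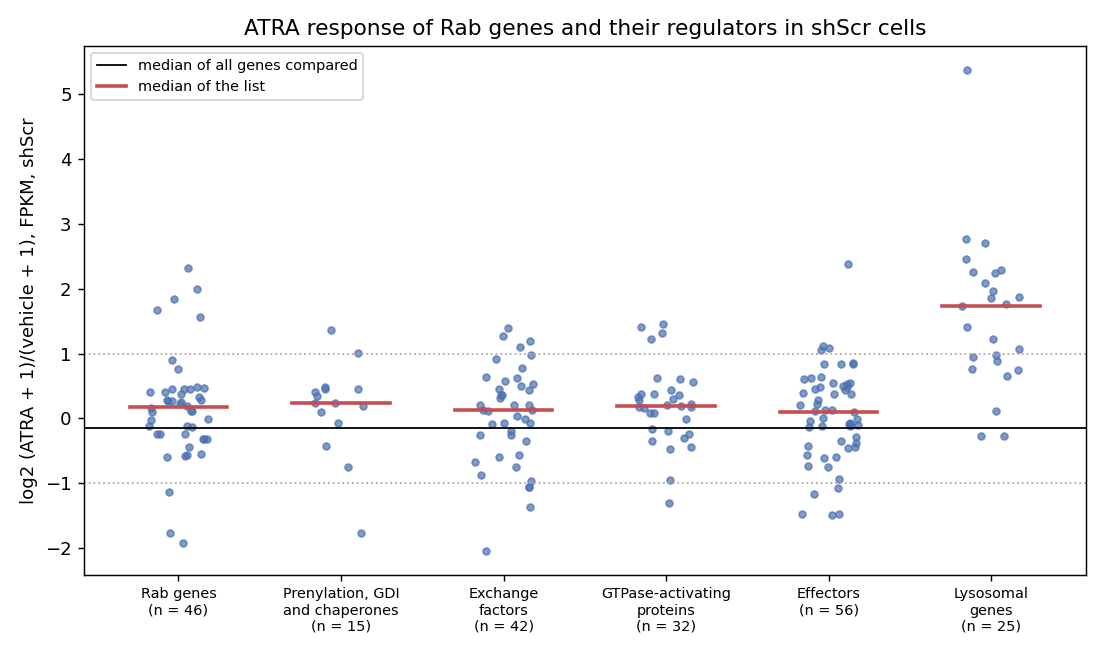
log2 ratio of ATRA over vehicle in shScr cells for the Rab genes, 4 lists of their regulators and effectors and the lysosomal comparison list, 1 point per gene with a small sideways offset. Red bars are list medians and the black line is the median of all genes compared (-0.15); the Rab and regulator medians lie between 0.10 and 0.24, and that of the lysosomal genes lies at 1.74.

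Several members carry limits of their gene models. In all, 12 of the 46 overlap another listed model and 4 overlap one above 0, namely RAB15, RAB1A, RAB37 and RAB3D. Among the symbols under the mean, RAB43 was listed at 0 in all groups while the read-through gene ISY1-RAB43 was at 10.2 and 10.997 FPKM in the shTFEB and shScr ATRA groups and 7.05 and 7.28 FPKM in the shTFEB and shScr vehicle groups. Whether the counting used strand is not stated.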

How the data were processed

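RNA of NB4 cells was sequenced from TruSeq libraries of total RNA, with 2 samples per group, per the labels. The authors derived the deposited FPKM, per the submitters' processing notes, with TopHat, Cufflinks and Cuffdiff on the build hg19, with tool versions not given in the sources used here. Each of 4 deposited tables lists 65986 transcript models, each with an FPKM, its bounds on the FPKM scale and a status. How the 2 samples of a group were combined is not stated. All 90 member models had the status OK.

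Gene symbols came from a RefSeq table of GRCh38.p14, in which 39841 of 41159 accessions matched. A gene's FPKM and bounds are the sums over its models (22627 symbols), with no further scaling, and 11052 symbols with a mean of at least 1 FPKM were compared as log2 ratios with a pseudocount of 1 FPKM. No test can be made on a single value per group, so a log2 ratio of 1 in size was counted. Gene coordinates are hg19, counted from 1. Promoter windows and their coordinates are RefSeq GRCh38.p14. Coding identities come from GENCODE 29 transcripts and cover the bases that align without gaps.

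Total counts are not in the tables. The steps between low FPKM values (under 0.1) gave depths of 0.911 (shTFEB ATRA), 1.05 (shScr ATRA) and 1.17 (shTFEB vehicle) relative to shScr vehicle, with 58.2% to 60.3% of ratios matching within 0.2%.

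The members, gene lists and comparisons were chosen with earlier results of these data known. Members past the 2-fold mark, the 2 highest of each role class and the 3 on each side of the 1 FPKM limit were described by their group values or range, and up to 5 genes with the largest ratio were named from each regulator list. A gene that this rule names is not reported here. RAB3C, RAB4B, RAB6A, RAB21, RAB32, RAB38, RAB11A and the other genes of the marker lists were named after their values were seen. Alternatives covered the pseudocount (0.1 and 5), the filter on the mean (none, or at least 5 FPKM) and the sum over models replaced by the highest. They also covered models with the status OK alone, calls with bounds apart, and median-of-ratios and upper-quartile scaling over genes with a mean of at least 1 FPKM. The scripts were tested on simulated data. Python 3.11.15, pandas 2.3.3, numpy 2.4.6 and matplotlib 3.10.9 were used.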

Additional observations from a re-analysis of the deposited data

Results flagged for a closer look

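RAB38, a gene of melanosomes and related organelles, responded to ATRA in opposite directions in the lines, at 7.91 FPKM in shTFEB ATRA against 6.27 FPKM in shTFEB vehicle cells and 5.99 FPKM in shScr ATRA against 7.24 FPKM in shScr vehicle cells, a difference of responses of 0.53 on the log2 scale. RAB40B did so the other way, with a difference of -0.69 and levels of 1.26 to 2.32 FPKM. In shScr cells the deposited bounds of ATRA and vehicle overlapped for RAB38 (4.82 to 5.90 against 5.85 to 7.20 FPKM). They also overlapped there for RAB40B (1.86 to 2.47 against 1.34 to 1.91 FPKM). In shTFEB cells the bounds of both genes were apart. Neither difference of responses was tested, since each group has 1 value.

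Some Rab genes under the mean of 1 FPKM had more signal under ATRA, with deposited bounds apart from those of vehicle. The bounds were apart in both lines for RAB25, and in shTFEB cells alone for RAB33A and RAB39A. RAB25, a relative of RAB11 found mainly in epithelia, was at 0.320 FPKM in shTFEB ATRA and 0.292 FPKM in shScr ATRA cells, against 0.0497 and 0.0438 FPKM in the shTFEB and shScr vehicle groups. RAB33A was at 0.421 FPKM in shTFEB ATRA cells, against 0.122 FPKM in shScr ATRA cells and 0.0727 and 0.0853 FPKM in the shTFEB and shScr vehicle groups. RAB39A, described on phagosomes, was at 0.438 FPKM in shTFEB ATRA cells, against 0.0650 FPKM in shScr ATRA cells and 0.0139 and 0.0244 FPKM in the shTFEB and shScr vehicle groups.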

How the results depend on the processing

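Of 128 family counts and medians recomputed under an alternative, 108 stayed within the limits set for them. Of 690 values of named genes 672 kept their call, 13 fell under the 2-fold mark, 5 passed it and 0 reversed. These totals say little of how stable the calls are, since most of the 690 values lay under the mark from the start. The setting with status OK alone could change none, as all 90 member models had that status. The highest model alone could change only genes with 2 or more models above 0. With a pseudocount of 5 FPKM, which shrinks low genes, 2 Rab genes were higher (without RAB37 and RAB13) and 1 lower (RAB15) under ATRA in shTFEB cells and 0 were lower in shScr cells; with the TFEB hairpin 0 were higher and 0 lower under ATRA and 0 higher under vehicle, and 0 had a lower response. With a pseudocount of 0.1 FPKM, 4 genes were higher in shTFEB vehicle cells (RAB31 and RAB3C were added) and 1 had a higher response (RAB27B). With a mean of at least 5 FPKM, which leaves 35 members without RAB6B, RAB15 and RAB27B, 0 were lower under ATRA in either line and 0 higher in shTFEB cells at either treatment. With the highest model alone, 1 gene had a lower response (RAB31). Without a filter the median ATRA ratio was 0.043 in shTFEB and 0.066 in shScr cells.

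Median-of-ratios scaling moved the median of all genes by 0.13 in shTFEB and 0.15 in shScr cells and the Rab median to 0.28 and 0.35. The split of all genes past the mark in shScr cells was 1612 higher and 1256 lower, against 1384 and 1676 as deposited. Upper-quartile scaling gave a Rab median of 0.31 for ATRA in shScr cells and -0.092 for shTFEB against shScr under ATRA, a sign other than as deposited. RAB7A's small ATRA ratio in shScr cells was 0.07 under median-of-ratios scaling, with the sign turned.

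No paired analysis was possible because the tables hold 1 value per group, and leaving out a replicate was not possible either. No spread between samples is known, and values near 1 FPKM rest on few reads.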
